A study of Homo sapiens with 7 samples.

Results

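The MEF2 genes MEF2A, MEF2B, MEF2C and MEF2D encode a small family of transcription factors, and what binds around them was described in OCI-Ly7 cells, a human line established from a diffuse large B-cell lymphoma. The 4 genes were chosen by name, out of 19974 protein-coding genes on chromosomes 1 to 22 and X in the RefSeq annotation of GRCh38. Every peak whose summit lay inside one of them, or within 100 kb of either end, was counted. Summits within 1 kb of a RefSeq start of the gene were called promoter peaks, and all others in the window were called distal. Chromatin immunoprecipitation followed by sequencing (ChIP-seq) had been run once per antibody on cultures of the line, against CREBBP, EP300, MED1, OCA-B, OCT1 and OCT2, with an input library as the common control. With 1 library per factor there is no replicate, no spread and no test between factors or genes, so all values below are descriptions of these libraries. The libraries held 12357450 to 27885791 tags after duplicate removal and gave 23571 (OCT1) to 82569 (EP300) peaks.

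MEF2 proteins bind A/T-rich DNA through a MADS box and the adjoining MEF2 domain. Class IIa histone deacetylases hold them in a repressive state, and calcium and MAP kinase signals release them and recruit acetyltransferases such as EP300. The family is best known from muscle and neurons, while in B cells MEF2C acts downstream of the antigen receptor and MEF2B is a germinal centre factor that activates BCL6 and is recurrently mutated in lymphoma. OCT1 and OCT2 are POU factors that read the octamer ATGCAAAT, and OCA-B is the B cell coactivator that joins them there. MED1 is a Mediator subunit, and CREBBP and EP300 are paralogous acetyltransferases.

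The octamer was searched on both strands in the RefSeq promoter sequences of GRCh38.p14, which run from 250 bases before a start to 50 bases after it. It occurred in 618 of 34961 promoters (1.77%). Among the MEF2 genes it was present at the single start of MEF2B and at 1 internal start of MEF2C, and it was also present at the start of MEF2C-AS2, a non-coding RNA gene beyond the 3′ end of MEF2C. These 3 promoters are shown because OCT1 and OCA-B summits described below lie within 50 bases of their octamers, given in capitals. They are followed by a MEF2C start without the octamer, where the acetyltransferase peaks of that gene were highest, and by the 5′-most start of MEF2A. All are written 5′ to 3′ on the strand of the gene. The coordinates are chr19:19170214-19170513 (MEF2B, minus strand), chr5:88824295-88824594 (MEF2C internal start, minus), chr5:88675968-88676267 (MEF2C-AS2, plus), chr5:88827143-88827442 (MEF2C start without octamer, minus) and chr15:99565167-99565466 (MEF2A, plus).
MEF2B: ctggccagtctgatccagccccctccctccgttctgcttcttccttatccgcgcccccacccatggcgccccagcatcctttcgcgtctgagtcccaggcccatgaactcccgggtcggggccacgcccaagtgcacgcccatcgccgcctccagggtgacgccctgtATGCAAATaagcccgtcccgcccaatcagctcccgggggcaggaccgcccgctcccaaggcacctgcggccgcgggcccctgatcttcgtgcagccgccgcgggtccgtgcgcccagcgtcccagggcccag
MEF2C internal start with octamer: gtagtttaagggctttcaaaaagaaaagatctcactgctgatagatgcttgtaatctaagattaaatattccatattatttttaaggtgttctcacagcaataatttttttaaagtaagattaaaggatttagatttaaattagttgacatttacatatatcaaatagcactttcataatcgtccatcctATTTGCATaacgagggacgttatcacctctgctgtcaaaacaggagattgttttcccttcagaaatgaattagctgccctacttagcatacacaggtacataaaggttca
MEF2C-AS2: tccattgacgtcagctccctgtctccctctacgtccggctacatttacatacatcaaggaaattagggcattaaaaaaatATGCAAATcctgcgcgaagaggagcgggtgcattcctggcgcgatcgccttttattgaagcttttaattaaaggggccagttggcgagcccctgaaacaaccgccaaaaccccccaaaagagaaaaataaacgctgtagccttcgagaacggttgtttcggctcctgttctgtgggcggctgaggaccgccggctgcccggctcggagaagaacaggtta
MEF2C start without octamer: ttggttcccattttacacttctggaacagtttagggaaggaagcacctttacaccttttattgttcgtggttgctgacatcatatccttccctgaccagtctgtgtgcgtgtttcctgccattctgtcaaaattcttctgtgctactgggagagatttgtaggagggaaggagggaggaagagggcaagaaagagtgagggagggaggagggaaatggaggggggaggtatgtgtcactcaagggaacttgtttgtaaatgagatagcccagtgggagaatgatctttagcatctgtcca
MEF2A: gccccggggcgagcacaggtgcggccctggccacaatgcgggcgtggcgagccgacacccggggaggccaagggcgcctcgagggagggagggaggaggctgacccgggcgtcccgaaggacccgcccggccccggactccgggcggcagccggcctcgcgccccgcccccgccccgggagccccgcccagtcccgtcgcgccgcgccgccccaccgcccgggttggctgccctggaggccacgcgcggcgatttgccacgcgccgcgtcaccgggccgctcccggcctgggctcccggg
The GC content of these windows ran from 32.0% at the octamer-bearing MEF2C start to 71.0% at MEF2B and 82.3% at MEF2A. No octamer letters were found in the windows of the other MEF2 starts, which says nothing of the sequence outside those windows.

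The labelled cell type was checked by occupancy at marker genes, the only check peak lists allow. The B cell genes MS4A1, CD79A, CD79B, PAX5 and CD22 each had a promoter peak of OCA-B, OCT2 and EP300. None of the 3 myeloid, 3 erythroid, 3 muscle and 3 liver markers had a promoter peak in any list, and of the T cell markers CD3E had promoter peaks in 5 lists while CD3D and CD2 had none.

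The 4 genes fell into different levels of distal occupancy. MEF2B had 28 distal OCA-B, 25 OCT2 and 12 OCT1 peaks, beside 18 of MED1, 24 of CREBBP and 23 of EP300. MEF2D had 23 OCA-B, 30 OCT2 and 9 OCT1 peaks, beside 18 of MED1, 20 of CREBBP and 36 of EP300. MEF2C had 20 OCA-B, 28 OCT2 and 14 OCT1 peaks, beside 14 of MED1, 16 of CREBBP and 34 of EP300, in the window of a much longer gene. MEF2A had 3 OCA-B, 7 OCT2 and 2 OCT1 peaks, beside 1 of MED1, 3 of CREBBP and 12 of EP300, the fewest of the 4 in every list. The median protein-coding gene had 7, 8, 3, 4, 4 and 9 in the same order of factors. MEF2A was below that median in all lists except EP300, and the other 3 genes were above it in all lists.

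Since a long gene has a long window, the counts were also divided by window length. MEF2B had 12.5 distal OCA-B peaks per 100 kb, MEF2D 9.7, MEF2C 5.17 and MEF2A 0.855. Among all protein-coding genes, 94.8% had a lower OCA-B density than MEF2B, 72.2% than MEF2C and 23.8% than MEF2A, while MEF2D stood at the edge of the top 10%. The order MEF2B, MEF2D, MEF2C, MEF2A held for OCA-B, OCT1, MED1 and CREBBP, with MEF2D ahead of MEF2B for OCT2 (12.7 against 11.1) and EP300 (15.2 against 10.2). MEF2B and MEF2D each lay in the top 10% of genes in 5 of 6 lists. The exception was EP300 for MEF2B, at 86.1%, and OCT1 for MEF2D, at 87.4%. By construction 10.0% of genes are called in each list. A share of 3.89% was called in all 6, a set that includes neither gene, and the share called in at least 5 lists was not counted. MEF2C lay between 72.2% and 86.4% and MEF2A between 21.2% and 49.1%. The windows of MEF2B and MEF2D hold many other genes, and a distal summit there cannot be assigned to a gene from peak positions. With each distal summit counted only for the closest protein-coding gene, MEF2B, MEF2C and MEF2D were in the top 10% in all 6 lists. The window of MEF2C holds no other protein-coding gene, and all 126 of its distal peaks stayed with it. MEF2B kept 88 of 130 and MEF2D 82 of 136. Counted in this way MEF2A no longer lay below most genes: 68.8% of genes ranked lower for OCA-B, 73.8% for OCT2, 61.4% for MED1, 74.4% for CREBBP and 85.7% for EP300, while no OCT1 peak was left to it.

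**Figure D1:**
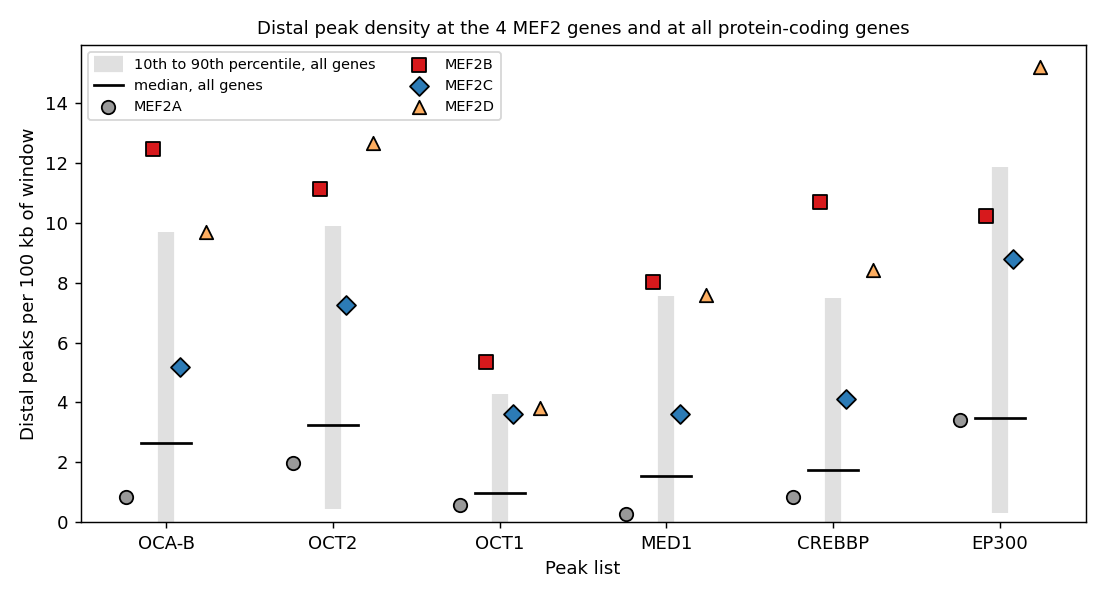
Distal peaks per 100 kb of window (vertical axis) in each of the 6 peak lists, with 1 point per MEF2 gene, a black line at the median of all 19974 protein-coding genes and a grey band from their 10th to their 90th percentile. MEF2B, MEF2C and MEF2D stand above the median in every list, and MEF2A lies below it, closest for EP300.

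MEF2B (chr19:19145567-19170263, minus strand) was the gene whose own body was most densely occupied. Of its 130 distal peaks summed over the lists, 68 (52.3%) had the summit inside the gene, although the gene is only 24.7 kb long and its window is 225 kb. EP300 peaks covered 63.1% of the gene and CREBBP peaks 48.5%, ranks 3 and 2 among the 14316 protein-coding genes of at least 10 kb. MED1 peaks covered 44.3% (rank 17), OCA-B peaks 40.3% (rank 4), OCT2 peaks 39.4% (rank 9) and OCT1 peaks 12.0% (rank 32). The median gene had 0.417% covered by OCA-B and 0.799% by EP300. MEF2D had 12.7% covered by OCA-B and 26.9% by EP300, MEF2C 3.1% and 10.3%, and MEF2A 0.506% and 1.19%. A readthrough gene, BORCS8-MEF2B, spans the same bases, so peaks inside MEF2B lie inside it as well.

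**Figure D2:**
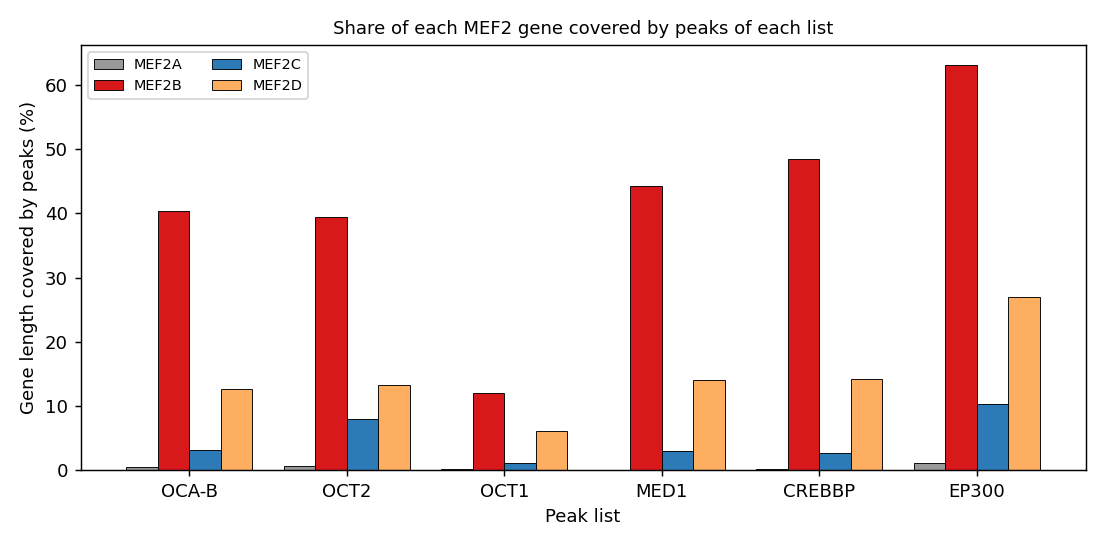
Share of the length of each MEF2 gene covered by peaks of each list (vertical axis, percent), each bar being 1 gene in 1 library. MEF2B is highest in every list, from 12.0% for OCT1 to 63.1% for EP300, and MEF2D is next in every list.

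The occupied part of MEF2B consisted mainly of 2 stretches in which peaks of all 6 lists merged, by overlap of at least 1 bp. The longer lay inside the gene at chr19:19154390-19162427, 8038 bp in length, and held 35 peaks. Only 84 of the 111561 merged regions of the genome were as long or longer, and the median region was 332 bp. Its highest folds, as the authors' peak caller gave them over the input, were 31.95 for OCA-B, 31.94 for OCT2, 28.94 for CREBBP, 26.21 for EP300, 19.06 for OCT1 and 14.95 for MED1. The lists differ in depth, antibody and duplicate handling, so these folds do not rank the factors against each other. The other stretch ran over the start, at chr19:19165161-19170555, with 23 peaks in 5395 bp, and held the highest EP300 peak of the window (30.31). A smaller region in all 6 lists, at chr19:19192007-19192889, lay at the start of BORCS8 and BORCS8-MEF2B. It was also at a boundary of the gene RFXANK, which spans its midpoint. Its folds were between 4.33 (CREBBP) and 10.7 (OCA-B).

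The highest OCA-B, OCT2 and OCT1 peaks around MEF2B were elsewhere, in a region 892 bp long at chr19:19174847-19175738, its midpoint at −5.0 kb from the start. Its OCA-B fold of 32.17 was the 258th of 55361, its OCT1 fold of 34.42 was the 218th of 23571 and its OCT2 fold was 35.98. EP300 was present at only 5.18, and MED1 and CREBBP had no peak there. Among the 258 merged regions with an OCA-B fold at least that high, 205 (79.5%) were in all 6 lists, and 37 (14.3%) lacked both MED1 and CREBBP. The region upstream of MEF2B, which lies inside the readthrough gene BORCS8-MEF2B, was 1 of those 37. The CREBBP library was the shallowest, at 12357450 tags, and its part in the missing peak was not tested.

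At the MEF2B start itself, an OCT1 summit with fold 24.79, above 98.2% of that list, lay 9 bases from the octamer, and an OCA-B summit with fold 6.54 lay 5 bases from it. The octamer lies 74 bases before the start. No OCT2 peak covered it, and the nearest OCT2 summit was 1319 bases away, with fold 4.09. An OCA-B summit lay within 1 kb of the start at 33.7% of octamer-bearing promoters, against 33.6% of all promoters. The shares were 29.9% against 31.1% for OCT1 and 37.1% against 29.1% for OCT2. Of the 618 octamer-bearing promoters, 86 had OCA-B and OCT1 summits within 50 bases of an octamer. Of these, 75 also had an OCT2 summit there, and 3 had no OCT2 summit within 1 kb of the start. MEF2B was thus 1 of 3 such promoters. This depends on the summit: a wide OCT2 peak reaches into the 1 kb around the start, so OCT2 is counted there when any part of a peak is used. The other promoter summits of MEF2B were an OCA-B peak of 7.75, a MED1 peak of 6.86 and a CREBBP peak of 11.25, all 481 to 595 bases inside the gene, and an EP300 peak of 3.25 at −650 bases.

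**Figure D3:**
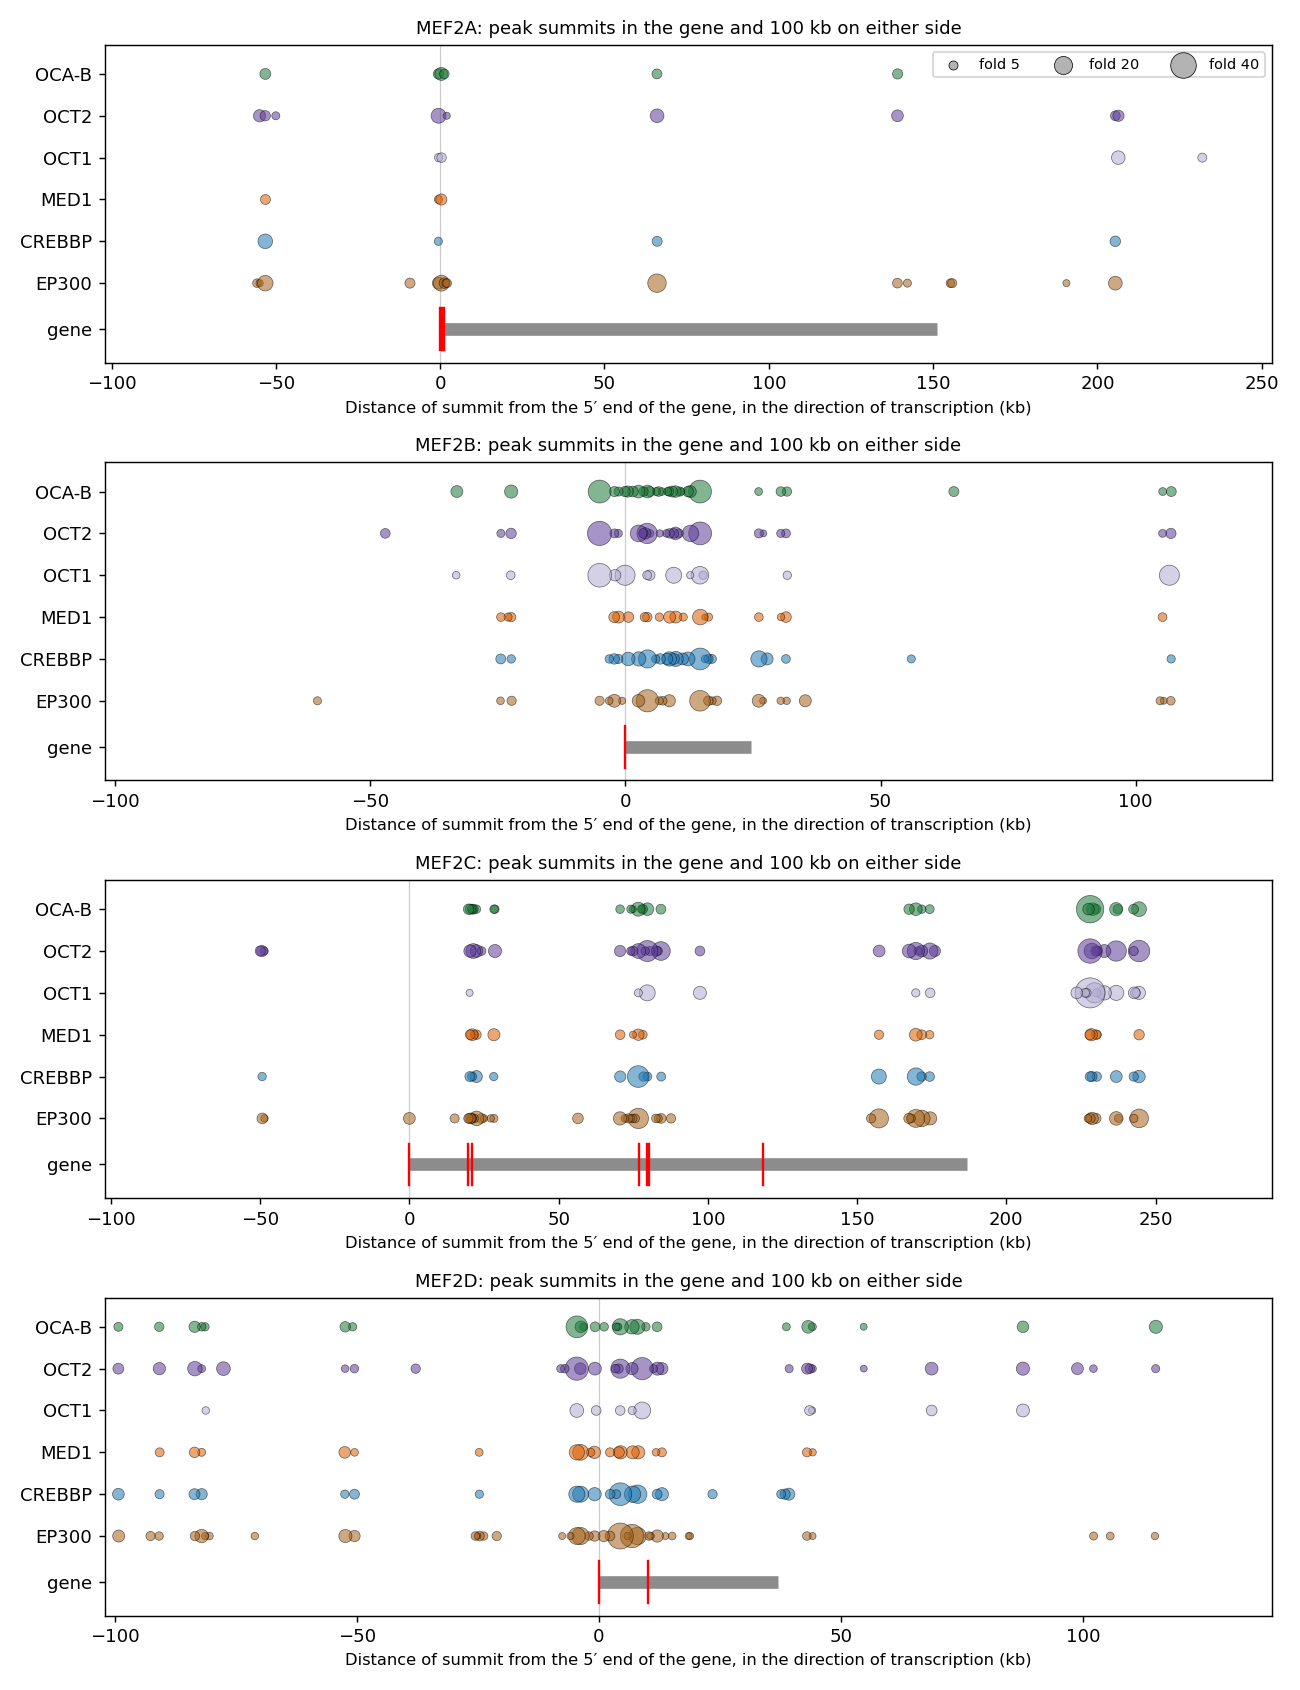
Positions of peak summits in the 6 lists around each MEF2 gene, as distance from the 5′ end in kb along the gene's strand (horizontal axis), 1 row per list, with circle area growing with fold, the gene as a grey bar and its starts in red. The summits of MEF2B crowd inside the gene, those of MEF2C lie in separate groups along its body and beyond its 3′ end, and MEF2A is sparse.

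MEF2C (chr5:88717117-88904105, minus strand, 187.0 kb) had 74 of 126 distal peaks (58.7%) inside the gene and 7 listed starts that differed in occupancy. At its 5′-most start only EP300 had a peak, with fold 8.63 and the summit at −14 bases. The internal start 118.6 kb downstream had none in any list. The starts at 19.6 and 20.9 kb, near the start of the non-coding gene MEF2C-AS1, had summits of all 6 factors, with highest folds of 3.08 (OCT1) to 9.36 (OCT2) at the former and 3.08 (OCT1) to 13.39 (OCT2) at the latter. The start at 76.9 kb, which has no octamer in its window, had peaks of all 6 factors, with summits from −179 to −226 bases. There CREBBP reached 28.76 and EP300 25.17, while OCA-B was 11.98, OCT2 13.48, OCT1 3.98 and MED1 8.0. The 2 starts near 80 kb (79.8 and 80.2 kb) shared the same highest peaks: OCT2 27.08, OCT1 15.69, OCA-B 9.83 and CREBBP 4.86. Neither had a MED1 or EP300 summit within 1 kb. A wide EP300 peak of fold 25.17, the one whose summit lies at the 76.9 kb start, nevertheless covers the octamer of the 79.8 kb start. An octamer stands 52 bases before the start at 79.8 kb, and the OCT1, CREBBP, OCT2 and OCA-B summits were 11, 34, 35 and 44 bases from it. A 4603 bp merged region, chr5:88823679-88828281, joined these neighbouring starts.

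The strongest POU factor peaks around MEF2C were outside it, at the start of MEF2C-AS2, 41.1 kb beyond the 3′ end. The OCA-B fold there was 46.03, the 35th of 55361, and the OCT1 fold was 55.4, the 66th of 23571. OCT2 reached 36.53. All 6 factors had a peak over the octamer 162 bases before that start, with summits 3 (CREBBP), 6 (OCT2), 20 (OCA-B), 24 (OCT1), 28 (MED1) and 39 (EP300) bases from it. Over the octamer MED1, CREBBP and EP300 had folds of 6.28, 5.78 and 6.23. Their highest folds within 1 kb of the MEF2C-AS2 start were 9.23, 6.24 and 9.38. At the MEF2C start at 76.9 kb they were 8.0, 28.76 and 25.17 by the same rule. The same window held a further region in all 6 lists at chr5:88659328-88659955, with OCT2 at 28.09 and EP300 at 21.36, inside the non-coding gene MIR9-2HG, and the highest MED1 peak of the window, 9.93, in a region inside MEF2C at chr5:88733465-88734878. Of the 18 merged regions with OCA-B around MEF2C, 17 (94.4%) also held OCT2 and all 18 held EP300, against 78.8% and 80.2% genome-wide. All 6 OCA-B regions around MEF2A held EP300 too. Of the 14 OCT1 regions around MEF2C, 57.1% held OCA-B, 42.9% MED1 and 57.1% EP300, below 71.7%, 53.8% and 65.8% genome-wide. Their shares with OCT2 (71.4% against 68.1%) and CREBBP (57.1% against 53.6%) were above.

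**Figure D4:**
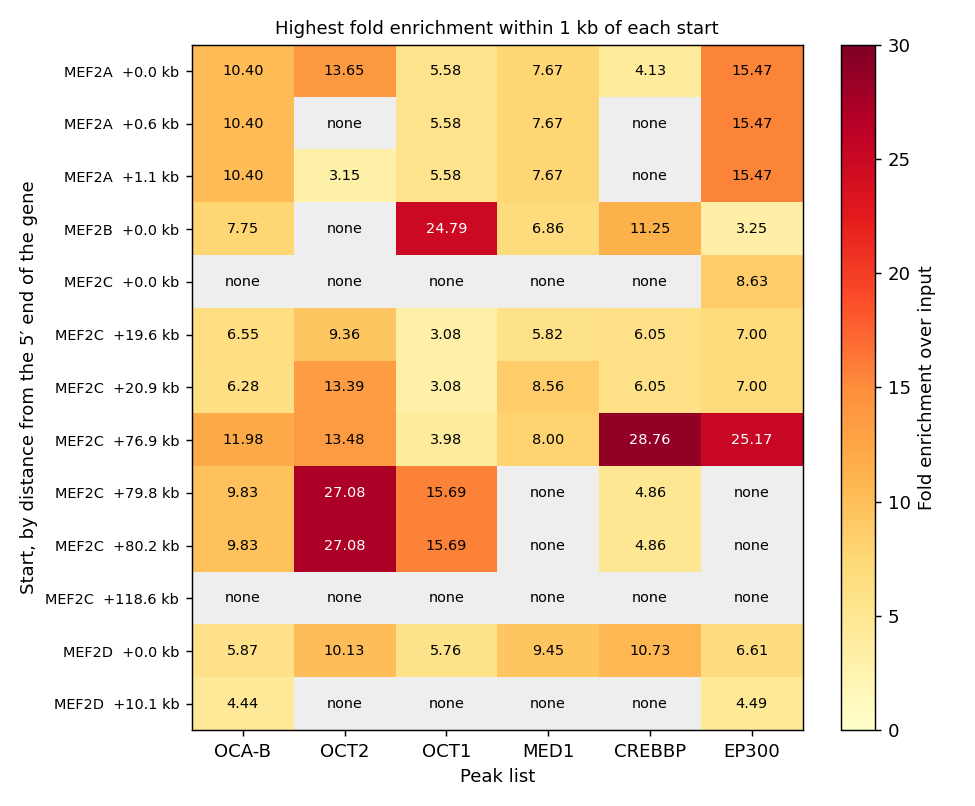
Highest fold enrichment of each list (columns) among peaks with the summit within 1 kb of each RefSeq start of the MEF2 genes (rows, with distance from the 5′ end in kb). Grey cells marked none have no such peak. The MEF2C starts range from none in any list at 118.6 kb to 6 lists at 76.9 kb.

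MEF2D (chr1:156463727-156500775, minus strand, 37.0 kb) had 44 of 136 distal peaks (32.4%) inside the gene. A region at chr1:156504877-156505685, its midpoint at −4.5 kb from the start, was the highest for OCA-B (29.02) and OCT2 (33.23), and there OCT1 was 11.59, MED1 14.33, CREBBP 16.01 and EP300 17.43. At 4.2 kb inside the gene, chr1:156495474-156497670 was the highest for CREBBP (31.64) and EP300 (41.31, the 943rd of 82569), with OCA-B at 16.14, OCT2 22.61, OCT1 5.65 and MED1 10.81. A region at 8.7 kb, chr1:156490779-156493403, was the highest for OCT1 (17.71), with OCT2 at 30.26, CREBBP 20.72, EP300 18.47, OCA-B 14.04 and MED1 10.65. The highest MED1 peak, 15.42, was in a region at chr1:156503176-156504848 that lacked OCT1. Unlike the upstream region of MEF2B, the upstream region of MEF2D at −4.5 kb was in all 6 lists. At the 5′-most start all 6 lists had a summit between −531 and −878 bases, with folds from 5.76 (OCT1) to 10.73 (CREBBP). The internal start 10.1 kb downstream had only OCA-B (4.44) and EP300 (4.49).

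MEF2A (chr15:99565417-99716488, plus strand, 151.1 kb) had the fewest peaks of the 4 genes, at its start and scattered through the window. Its 1 region in all 6 lists, chr15:99564482-99565176, lies just before the start and had folds of 13.65 (OCT2), 8.87 (EP300), 6.68 (OCA-B), 4.35 (OCT1), 4.13 (CREBBP) and 4.05 (MED1). A region inside the gene at 0.4 kb gave the highest OCA-B (10.4) and MED1 (7.67) folds of the window, with EP300 at 15.47 and OCT1 at 5.58 and no OCT2 or CREBBP peak. Only 9 of its 28 distal peaks (32.1%) were inside the gene, of which the highest was EP300 at 20.92, 65.9 kb from the start. The highest CREBBP peak (13.1) was at chr15:99511779-99512701, −53.2 kb from the start, with EP300 at 14.84. The highest OCT1 peak (11.21) was 55.2 kb beyond the 3′ end. Across the 6 lists, 1 peak in the MEF2A window, of EP300, was in the top 10% of its list by fold.

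Promoter peaks were present for all 4 genes in every list except OCT2, and for 3 in OCT2, the exception being MEF2B. Among all protein-coding genes 45.0% had an OCA-B promoter peak, 43.2% an EP300, 42.6% an OCT1, 38.6% an OCT2, 32.0% a MED1 and 28.8% a CREBBP promoter peak. One in all 6 lists was found at 20.2% of genes, and 45.1% had none in any list. MEF2A, MEF2C and MEF2D were among the genes with a promoter peak in all 6 lists. A gene with several starts has more chances to be counted, and MEF2C has 7. A region with all 6 factors lay in the windows of all 4 genes (5 for MEF2B, 6 for MEF2C, 5 for MEF2D and 1 for MEF2A), as it did for 64.5% of protein-coding genes. Regions in all 6 lists were 5 of 27 (18.5%) for MEF2B and 6 of 45 (13.3%) for MEF2C. They were 5 of 50 (10.0%) for MEF2D and 1 of 18 (5.56%) for MEF2A, against 9.49% of all merged regions. The MEF2D share was near that of all regions. With so few regions per window, the other shares were not read as a difference from it.

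**Figure D5:**
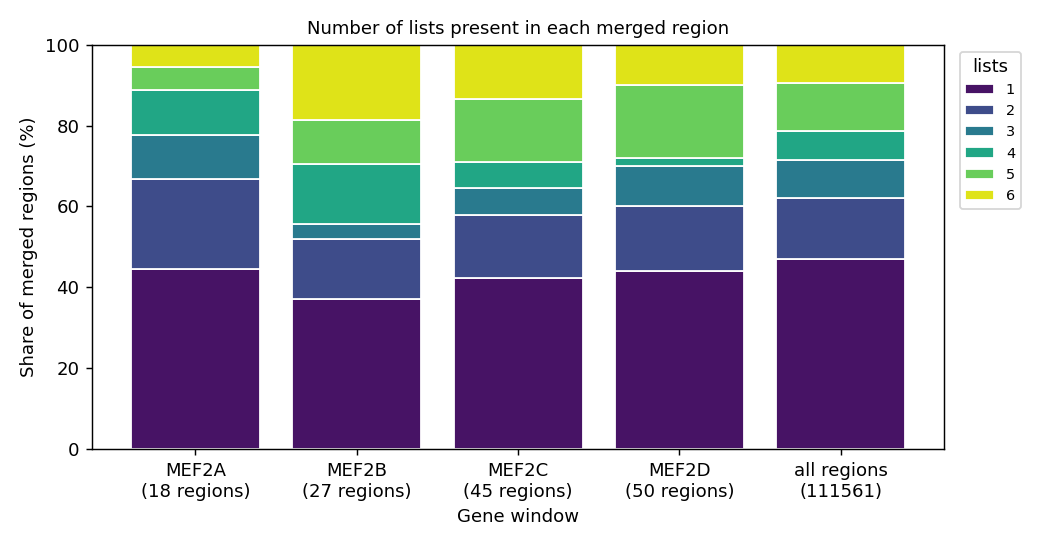
Stacked bars of the share of merged regions (vertical axis, percent) present in 1 to 6 lists, for the window of each MEF2 gene and for all 111561 merged regions. Regions in all 6 lists make up 18.5% of 27 regions for MEF2B and 5.56% of 18 for MEF2A, against 9.49% of all merged regions.

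Genes of MEF2 control and output were taken from lists chosen with earlier results of these data known. Among 14 partners and regulators (class IIa histone deacetylases, calcineurin subunits, MAP kinases and others), 11 had an OCA-B promoter peak, 11 an OCT2, 12 an OCT1, 8 a MED1, 8 a CREBBP and 10 an EP300 promoter peak, and each had one in at least 1 list. HDAC7 had the highest distal OCA-B density of them, 15.92 peaks per 100 kb, ahead of HDAC5 (12.56) and MAPK11 (10.65), a p38 kinase. HDAC7 and HDAC5 encode class IIa deacetylases that repress MEF2. The other class IIa genes listed, HDAC4 (1.99) and HDAC9 (1.17), lay below the median of all protein-coding genes, 2.639. Of 6 described targets, 4 had an OCA-B and 2 an OCT2 promoter peak, 5 an OCT1, 2 a MED1, 2 a CREBBP and 4 an EP300 promoter peak. In the same order, 45.0%, 38.6%, 42.6%, 32.0%, 28.8% and 43.2% of all protein-coding genes had such a peak. None in any list was found at 45.1%. The counts of the partners lay above these shares. For the targets, the OCT2, MED1 and CREBBP counts lay near them and the other counts above them. Among the targets, KLF2 (9.81 distal OCA-B peaks per 100 kb), the immediate-early gene NR4A1 (8.87) and BCL6 (8.48), the germinal centre repressor, came first. HDAC9 is on both lists. The genes with the distal profile nearest to each member, by the smallest summed difference in density over the 6 lists, were MAMLD1, TXNDC12 and PRICKLE1 for MEF2A (1.17 to 1.26 peaks per 100 kb), EPN1, IKZF4 and TSKS for MEF2B (3.2 to 3.21), LAMP3, ITPRIP and DBH for MEF2C (1.98 to 2.29) and FES, ERBB2 and FCRL3 for MEF2D (1.67 to 3.85).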

How the data were processed

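CREBBP, EP300, MED1, OCA-B, OCT1 and OCT2 were each mapped in 1 ChIP-seq library of OCI-Ly7 cells. Per the submitters' processing notes, the build was hg38 and the tools named were MACS2 2.1.1.20160309, SAMtools 1.3.1, Bowtie2 2.3.2.2 and CASAVA 1.8.2. Per the file headers, each list was called against the same input at a q threshold of 0.05. The deposited lists give peak positions and, as the authors' peak caller wrote them, the fold enrichment (a ratio over the input), the −log10 q-value and −log10 p-value, and the summit pileup signal. Folds were used only within a list.

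Peaks on chromosomes 1 to 22 and X were read with Python 3.11.15, pandas 2.3.3 and numpy 2.4.6. Starts were the RefSeq starts of each gene with its 5′ end; a gene without a listed start used either end. Peaks overlapping by at least 1 bp were merged across lists. Exons were not used here. Counting was tested on simulated peaks. No test was made, as each factor has 1 library. Regions named were the 3 with the highest OCA-B fold per gene, the highest per list and all promoter peaks. List genes named were the first 3 by distal OCA-B density and the other class IIa deacetylases. Members and lists were chosen with earlier results of these data known, and gene-body coverage, the 50-base octamer distance and the strong-region comparison after seeing the data. Alternatives were other windows, promoter definitions, q cuts, list lengths and nearest-gene assignment.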

Additional observations from a re-analysis of the deposited data

How the results depend on the processing

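No paired analysis was possible because each factor has 1 library and no result comes from a test. Summed distal peaks of MEF2A (28) were 13 with 50 kb flanks, 10 with all lists shortened to the length of the shortest, and 17 with peaks given to the nearest gene. Shortening the lists gave 64 for MEF2B (130), 60 for MEF2C (126) and 60 for MEF2D (136), and MEF2D had 90 with 50 kb flanks and 82 by nearest gene. Regions in all 6 lists fell to 0 for MEF2A (1) with −log10 q above 5 and with shortened lists, and to 2 with shortened lists and 3 by nearest gene for MEF2B (5). Lists with density in the top 10% were 6 for MEF2C (0) by nearest gene and 1 for summits inside the gene only, an alternative chosen after seeing the data, and 3 for MEF2D (5) with shortened lists. Lists with a promoter peak for MEF2C were 1 (6) when only the gene ends counted. Over the settings of these results, 68 values stayed within 1.5 times the reported value and 16 did not. Of the finer values, which were distal counts and gene ranks per list, 163 stayed close and 53 did not. There a count was close within 1.5 times the reported value, and a rank within 10 percentage points. The causes were not tested.

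Without replicates the spread is unknown. Depth, antibody and duplicate handling differ between lists (redundant tags made up a share of 0.08 to 0.2 in 4 libraries and 0.0 in CREBBP and MED1), and their part in the differences between factors was not tested.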
